A study of Mus musculus with 3 samples.

Results

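The cells described here are 1081 of 24328 kept cells that carried the Pthrp-mCherry reporter when sorted from mouse mandibular molars. They were chosen for transcripts of Ifitm5, Phex and Col11a2. A cell was kept with at least 500 genes detected and at most 20% of its UMIs (unique molecular identifiers, 1 per captured transcript) from mitochondrial genes. It was chosen when Ifitm5, Phex and Col11a2 together had at least 5 UMIs and at least 0.05% of its UMIs, and Ibsp had under 1.5%. They are called β-type cells below, after the cementoblast class whose markers these genes are. Out of 27089 deposited cells, 24328 were kept. The rule chose 266 of 11412 of them at postnatal day 15 (P15), 610 of 8325 on day 25 (P25) and 205 of 4591 in animals aged 8 weeks. Because the rule used Ifitm5, Phex, Col11a2 and Ibsp, those 4 genes are described and not tested.

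All 3 libraries came from Pthrp-mCherry knock-in mice on a C57BL/6 background, of both sexes, in which the red reporter marks cells that use the gene of parathyroid hormone-related protein (PTHrP, gene Pthlh). Mandibular molars of several mice were pooled at each age, dissociated with Liberase, sorted for mCherry and profiled with the 10x Genomics Chromium 3′ v3.1 kit, with 1 library per age. No group without the reporter and no treated group was analysed here, and no age has a replicate, so that age, library, depth and, for P25, the reference used for counting cannot be told apart. The P15 library held 188157997 UMIs, the P25 library 169712592 and the library of 8 weeks 46234378. Their median kept cells had 15270, 16586 and 9370 UMIs.

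Cementum is the mineralized layer on the tooth root into which the fibres of the periodontal ligament insert, and cementoblasts are the cells that lay it down. Acellular cementum covers the upper root and holds no cells, whereas cellular cementum near the apex traps cells that become cementocytes, much as osteoblasts become osteocytes in bone. Mineralizing cells secrete type I collagen, which is hydroxylated, cleaved and cross-linked, and then load it with calcium phosphate with the help of acidic phosphoproteins and of enzymes that set the ratio of phosphate to pyrophosphate. Ifitm5 encodes a small membrane protein of osteoblasts that is mutated in a form of brittle bone disease. Phex encodes a membrane peptidase that limits the phosphate hormone FGF23 and is lost in X-linked low-phosphate rickets. Col11a2 encodes a chain of type XI collagen, and Ibsp encodes bone sialoprotein, an acidic matrix protein abundant in acellular cementum.

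The β-type cells were 2.33% of kept cells at P15 (95% Clopper-Pearson interval 2.06 to 2.62), 7.33% at P25 (6.78 to 7.91) and 4.47% at 8 weeks (3.89 to 5.10). These intervals, and the Poisson intervals given with levels, cover counting error only. The share was lowest at P15 and highest at P25, and no test between ages is possible with 1 library each. The median β-type cell had 20780, 27888 and 13065 UMIs at P15, P25 and 8 weeks, against 15178, 16113 and 9274 in the other kept cells. The chosen cells were thus deeper than the rest in each library. After every cell was thinned to 6000 UMIs and the rule applied with at least 3 UMIs, the shares were 2.81%, 7.83% and 5.06% of 10378, 7854 and 3539 cells, in the same order, with cells under 6000 UMIs left out. The libraries shared 26, 16 and 13 cell barcodes pairwise, and no barcode was shared among the chosen cells.

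The genes behind the rule were unevenly used. Ifitm5 was at 1007, 921 and 656 CPM (UMIs of a gene per 1000000 UMIs) in the summed β-type cells of P15, P25 and 8 weeks. Col11a2 was at 524, 1032 and 736 CPM. Phex was at 95.4, 61.4 and 256 CPM, with a UMI in 18.4%, 12.1% and 37.6% of the cells. Most cells were therefore chosen for Ifitm5 and Col11a2, and all 3 genes were detected in 13.2%, 11.1% and 15.6% of them. Ibsp, which the rule kept low, was at 3008, 3150 and 3619 CPM, against 31556, 37846 and 41457 CPM in the Ibsp-high cells, the kept cells with Ibsp at 1.5% or more that did not pass the Ifitm5, Phex and Col11a2 part of the rule (652, 835 and 650 cells at the 3 ages).

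At the edges of the rule, 32, 25 and 47 chosen cells had 5 to 9 UMIs of the 3 genes at P15, P25 and 8 weeks, and 182, 79 and 65 cells outside had 3 to 4 UMIs. Bglap, which the rule did not use, was at 649, 3388 and 25385 CPM in the former and at 843, 696 and 9196 CPM in the latter. At P15 the cells just inside the threshold were thus no richer in Bglap than those just outside. Another 205, 167 and 100 cells met the Ifitm5, Phex and Col11a2 part but had Ibsp at 1.5% or more.

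The reference promoters of Ifitm5, Col11a2 and Bglap are shown. The cells were picked mostly by transcripts from Ifitm5 and Col11a2. Bglap had the most UMIs in them among the further markers Bglap, Col22a1 and Sema3e. Each sequence holds the 250 bases before the transcription start in RefSeq on GRCm38.p6, 5′ to 3′ on the strand of the gene. Capitals mark matches to 4 short motifs: TGTGGT or ACCACA (core of RUNX sites), TATAAA on the gene strand only, GGGCGG or CCGCCC (GC box), and TAATTA (homeodomain core, the same on both strands).

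Bglap, chr3:88384467-88384716, minus strand: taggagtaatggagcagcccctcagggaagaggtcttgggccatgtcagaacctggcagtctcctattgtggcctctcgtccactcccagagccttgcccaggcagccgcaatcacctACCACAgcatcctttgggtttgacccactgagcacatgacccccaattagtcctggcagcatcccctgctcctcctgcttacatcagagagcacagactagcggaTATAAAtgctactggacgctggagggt
Ifitm5, chr7:140950244-140950493, minus strand: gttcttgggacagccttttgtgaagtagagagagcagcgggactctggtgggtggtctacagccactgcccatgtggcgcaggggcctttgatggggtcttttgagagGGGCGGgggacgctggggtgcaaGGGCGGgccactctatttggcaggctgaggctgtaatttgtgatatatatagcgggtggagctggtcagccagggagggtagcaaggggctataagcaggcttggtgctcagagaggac
Col11a2, chr17:34038888-34039137, plus strand: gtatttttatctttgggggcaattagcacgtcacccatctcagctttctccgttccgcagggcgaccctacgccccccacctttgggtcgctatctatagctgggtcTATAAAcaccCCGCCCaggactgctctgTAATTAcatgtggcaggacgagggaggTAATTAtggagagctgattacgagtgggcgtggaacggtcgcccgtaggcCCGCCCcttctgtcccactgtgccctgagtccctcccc

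The Bglap window holds ACCACA from base -132 and TATAAA from base -27 relative to the start. The Ifitm5 window holds GGGCGG at -142 and -119, and the Col11a2 window holds TATAAA at -143, CCGCCC at -133 and -38, and TAATTA at -115 and -88. Of the 32851 promoters of this length in the table, 14% held the RUNX letters, 7.59% TATAAA, 32.7% a GC box and 4.84% TAATTA. A match is a description of the letters and no evidence that a factor binds. Of the 15 genes named below as higher in β-type cells than in all other kept cells, 10 had a promoter in the table, and among those 1 (Bglap) held the RUNX letters, 1 (Bglap) TATAAA, 5 a GC box and 0 TAATTA.

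To find what distinguished these cells beyond the genes of the rule, UMIs were summed per library over the β-type cells and over all other kept cells, and the 6 sums were compared with edgeR with the library as a block. Of 14278 genes tested, 552 (3.87%) were higher and 1526 (10.7%) lower in β-type cells, where a call needed an adjusted p below 0.05 and a log2 fold change beyond 1 or -1, and the median log2 fold change was -0.05. Such a p measures how evenly a difference between classes of cells recurs in the 3 libraries, not a difference between animals. The shares of 3.87% and 10.7% are the background for counts of called list members in this comparison below. Without the P25 library, 314 genes were higher and 504 lower.

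Bglap encodes osteocalcin, a small calcium-binding protein of mineralizing cells. It was at 11165, 18104 and 36918 CPM in β-type cells at P15, P25 and 8 weeks and at 547, 567 and 2166 CPM in all other kept cells. The level in β-type cells was far above that of the other cells in each library (log2 fold change 4.81, SE 0.25, edgeR adjusted p = 0.00172). Bglap2 (log2 3.77, SE 0.33) and Bglap3 (3.72, SE 0.26) were higher as well (edgeR adjusted p = 0.00528 and 0.00253), and neither was called without the library block (edgeR adjusted p = 0.069 and 0.066). The 3 genes lie side by side on the minus strand of chromosome 3 in GRCm38, Bglap3 at 88368616-88372743, Bglap2 at 88377736-88378699 and Bglap at 88383501-88384464. The last 200 bases of the first annotated transcripts are 99.5% identical between Bglap and Bglap2 and 97% between Bglap and Bglap3, so that the split of 3′ reads among them is uncertain. With each cell thinned to 3000 UMIs, 76.5%, 81.8% and 88.5% of β-type cells had a Bglap UMI, against 12.2%, 13.6% and 40% of 722, 118 and 25 cells carrying immune transcripts, which should lack it. Without thinning the shares were 91.4%, 94.3% and 96.6% against 30.9%, 36.9% and 63%.

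Col22a1, the largest difference among the genes named as higher, encodes a collagen of tissue junctions and lies on chromosome 15 at 71795795-72034227. It was at 30.7, 122 and 141 CPM in β-type cells and at 1.12, 2.70 and 4.59 CPM in the others, a log2 fold change of 5.43 (SE 0.22, edgeR adjusted p = 0.000561). At P15 it was carried by few cells, with 61.4% of its UMIs in the 5 highest cells. Thinned to 3000 UMIs, 4.92%, 25.1% and 29.7% of β-type cells had a UMI at the 3 ages, against 12.4%, 70.8% and 60% unthinned and 0 of 722, 118 and 25 thinned cells carrying immune transcripts. Sema3e, a secreted guidance molecule on chromosome 5 at 14025276-14256689, was at 59.2, 64.2 and 118 CPM against 5.54, 2.22 and 5.03 CPM (log2 4.60, SE 0.41, edgeR adjusted p = 0.00523). With each cell thinned to 3000 UMIs, 14%, 13.2% and 27.6% of β-type cells had a Sema3e UMI, against 0.139% of 722 cells carrying immune transcripts at P15, which should lack it, 0 of 118 at P25 and 0 of 25 at 8 weeks, which allow shares of up to 2.54% and 12%. Median depths before thinning were 20780, 27888 and 13065 UMIs in the former and 8480, 15018 and 9674 in the latter. Bglap, Col22a1 and Sema3e were named as markers of these cells with results of these libraries known, so their direction is not independent evidence. The study also lists Dmp1, Col1a1, Smpd3 and Sparc among the markers of its β class, found with these libraries. The direction of those genes in the comparisons below is not independent evidence either.

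Other genes on the upper side belong to several families. Car3, a carbonic anhydrase, was at 188, 122 and 130 CPM against 12.2, 3.89 and 4.52 CPM, with 40.3% of its P15 UMIs in 5 cells. Cgref1, a secreted calcium-binding protein, was at 218, 335 and 258 CPM against 14, 22.3 and 20.4 CPM (log2 4.17, SE 0.09, edgeR adjusted p = 0.000133). Nes, the intermediate filament nestin found in odontoblasts and neural precursors, was at 157, 51.2 and 65.4 CPM against 14.9, 5.73 and 6.78 CPM. Passing the test and the same direction in every library were conditions for naming these genes. The remaining genes named by size were Crtac1 (log2 4.20), Mamdc2 (4.03), Dmp1 (3.90), Grrp1 (3.88), Dtna (3.75), the corepressor Rcor2 (3.70) and the collagen-binding integrin subunit Itga10 (3.47). Crtac1 and Dmp1 lost the call without P25 (edgeR adjusted p = 0.139 and 0.104) and without 8 weeks (0.0774 and 0.067).

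**Figure D1:**
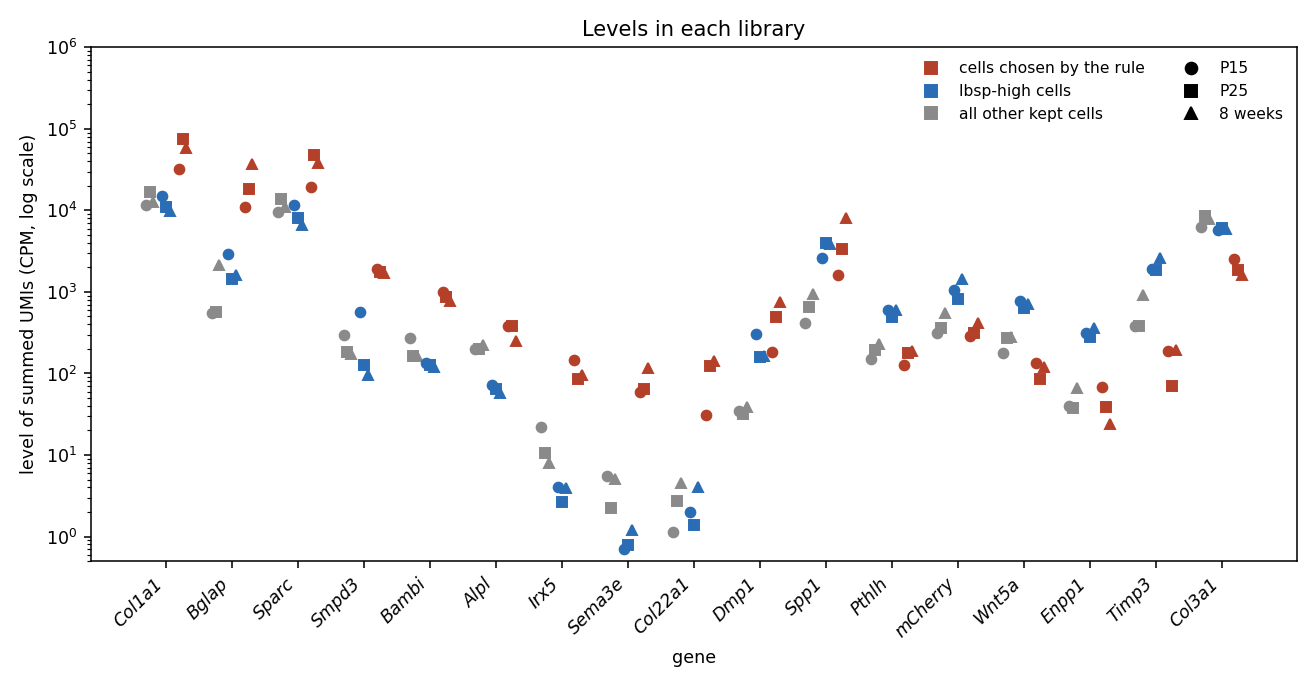
Levels of genes named in the comparisons, in CPM on a log scale, with 1 point per library for the β-type cells, the Ibsp-high cells and all other kept cells. Bglap sits between 11165 and 36918 CPM in the β-type cells of the 3 libraries and at 2166 CPM or less in all other kept cells.

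On the lower side, the named genes were Camp, Ngp, Retnlg, S100a8 and Lcn2 of neutrophils, H2-Aa and Cd74 of antigen presentation and Krt13 of epithelium. S100a8 was at 43.5, 7.64 and 2.56 CPM in β-type cells and at 3183, 194 and 44.1 CPM in all other kept cells. None of the 8 was called once cells carrying epithelial, immune, endothelial, erythroid or glial transcripts were left out of the comparison. In that setting 836 genes were lower in place of 1526, and 530 were higher in place of 552. Without the library block, Camp, Ngp, Retnlg, S100a8, Lcn2 and Krt13 were not called either.

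Markers of other cell types were low in β-type cells and not absent. All 10 epithelial genes and all 11 immune genes tested were lower than in the other kept cells, and 5 of 7 endothelial genes were. Of the 10 epithelial, 11 immune and 5 endothelial calls, 6, 11 and 4 remained without P15, 6, 10 and 2 without P25, 8, 6 and 5 without 8 weeks, and 1 of each without the library block. The summed epithelial markers were at 376, 616 and 43.8 CPM at P15, P25 and 8 weeks against 3412, 6371 and 1322 CPM, with Krt14 the most abundant. The summed immune markers were at 138, 58.7 and 12.4 CPM against 7992, 806 and 255 CPM, with S100a9 the most abundant, and the endothelial markers Cdh5 and Vwf had 0 UMIs in β-type cells. The erythroid markers, led by Hbb-bs, were at 182, 1565 and 25.6 CPM against 2887, 2340 and 50.1 CPM, and none of 5 passed the test. In the β-type cells of P25, 98.1% of the Hbb-bs UMIs and 67.4% of the Krt14 UMIs came from 5 cells. In total 13, 23 and 0 β-type cells carried at least 5 UMIs and 0.1% of UMIs of the epithelial, immune, endothelial, erythroid or glial lists, and whether they hold more than 1 cell was not tested.

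Cycling genes were low as well. Of 12 cell-cycle genes tested, 10 were lower in β-type cells and none higher, with a median log2 fold change of -1.24 beside -0.05 for all genes, and of the 10 calls 5 remained without P15, 7 without P25, 6 without 8 weeks, 5 with Ibsp under 0.75% and 0 without the library block. With cells of other types left out of the comparison, 1 remained. Their summed level was 290, 443 and 125 CPM against 1106, 1163 and 442 CPM. Against Ibsp-high cells none of the 12 was called, and all genes there had a median of -0.01.

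Of 13 mineral matrix genes tested against all other kept cells, 9 were higher, 1 (Smoc2) was lower and 3 were not called, with a median log2 fold change of 1.87. Sparc, a collagen- and calcium-binding glycoprotein, was at 19322, 47802 and 37894 CPM against 9440, 13674 and 11133 CPM. Spp1, osteopontin, was at 1593, 3327 and 8027 CPM against 413, 656 and 954 CPM, and Dmp1, an acidic phosphoprotein of late osteoblasts and osteocytes, was at 182, 492 and 763 CPM against 34.4, 31.7 and 38.7 CPM. All were higher in each library. Without P25, 6 of the 10 calls in this list remained, and those of Spp1, Dmp1, Sparc and Dcn did not. Without the library block 4 of the 10 remained, and those of Spp1, Dspp, Bglap2, Bglap3, Dcn and Fn1 did not. DESeq2 did not call Sparc (adjusted p = 0.158). In 5 cells lay 51.1% of the Spp1 UMIs of P15 and 31.6% of those of 8 weeks, and the median β-type cell had Spp1 at 36.2, 101 and 919 CPM. Mepe, a phosphoprotein of osteocytes, had 0 UMIs in all β-type cells.

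Collagen genes went both ways. Of 29 tested, 7 were higher and 12 lower than in all other kept cells, where 3.87% and 10.7% of all genes were. The median of the list was -1.04. Col1a1, the main chain of type I collagen and the most abundant, was at 32616, 75732 and 57539 CPM against 11718, 16827 and 12838 CPM (log2 2.27, SE 0.22, edgeR adjusted p = 0.00637). Col3a1, of soft fibrous tissue, was at 2520, 1873 and 1601 CPM against 6331, 8604 and 7959 CPM (log2 -1.62, SE 0.18, edgeR adjusted p = 0.00673). The basement membrane chains Col4a1 and Col4a2 and the chains Col6a1, Col6a2 and Col6a3 were lower too, whereas Col11a1, the partner chain of Col11a2, was higher (1372, 1283 and 805 CPM against 470, 454 and 354 CPM). Only 8 of the 19 calls remained without P25, and those of Col1a1 (edgeR adjusted p = 0.0592) and Col3a1 (0.0639) were among the calls lost. Without the library block 13 remained, and DESeq2 did not call Col1a1 (adjusted p = 0.106) or Col1a2 (0.138).

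Of 30 genes tested that hydroxylate, process and cross-link collagen or serve its secretion, 15 were higher, 1 (P4ha3) lower and 14 not called, with a median of 1.05. Plod2, the lysyl hydroxylase that modifies collagen ends for cross-linking, was at 572, 636 and 508 CPM against 151, 166 and 170 CPM. Lox, a lysyl oxidase, was at 249, 568 and 522 CPM against 85.9, 107 and 64.7 CPM, and Creb3l1, a transcription factor of collagen secretion, at 389, 352 and 257 CPM against 135, 137 and 130 CPM. Each was higher in every library and passed the test, and Lox did not pass without P25, where 11 of the 16 calls remained. Of 20 genes of general protein folding in the endoplasmic reticulum, 1 was higher and 0 lower, where 3.87% of all genes were higher. That gene was Xbp1, at 487, 351 and 218 CPM against 166, 181 and 148 CPM, and it was not called without P25.

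Enzymes and transporters of mineralization were mixed. Of 18 tested, 8 were higher, 1 (Car12) lower and 9 not called. Car12 (edgeR adjusted p = 0.225) and Fam20c (0.0513) were not called without P25, and Vdr was under the log2 limit of 1 without P15, without 8 weeks and in DESeq2. Smpd3, the neutral sphingomyelinase needed for mineralization of bone, was at 1888, 1762 and 1704 CPM against 295, 181 and 173 CPM (log2 3.42, SE 0.20, edgeR adjusted p = 0.00173). Smpd3 is a marker that the study chose on these libraries, so its direction is not independent evidence. Its level stayed within a narrow range across the 3 ages. Alpl, the phosphatase that breaks down pyrophosphate, was at 386, 383 and 252 CPM against 201, 198 and 223 CPM, and its call was lost without P15 and without P25. Ank, which exports pyrophosphate, was at 293, 322 and 466 CPM against 102, 102 and 156 CPM, and was called.

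Osteocyte and odontoblast genes were also high, with gaps. Of 12 osteocyte and cementocyte genes tested, 9 were higher and 0 lower, with a median of 2.26. Irx5, a homeodomain factor, was at 146, 85.4 and 95 CPM against 22, 10.6 and 7.88 CPM, and the sodium-calcium exchanger gene Slc8a3 at 85.2, 56.3 and 47.5 CPM against 10.4, 6.28 and 7.60 CPM. The Wnt inhibitor Dkk1 was at 23.9, 2.23 and 8.40 CPM against 0.548, 0.155 and 0.212 CPM, with 78.3% of its UMIs of 8 weeks in 5 cells. With each cell thinned to 3000 UMIs, 6.06%, 1.16% and 2.60% of the cells had a UMI, against 0 of 722, 118 and 25 cells carrying immune transcripts, which allow shares of up to 0.416%, 2.54% and 12%. Sost, the sclerostin gene of mature osteocytes, was at 2.45, 0 and 0 CPM, and at P15 it stood at 64.2 CPM in the 8 cells with Dspp described below and at 0 in the rest. Without P25, 4 of the 9 calls remained, those of Dkk1, Irx5, Pdpn and Slc8a3. Of 7 odontoblast genes, 5 were higher and 0 lower, among them the Wnt ligands Wnt10a (239, 182 and 162 CPM against 66.9, 78.3 and 58.2 CPM) and Wnt6. Dmp1, counted here and also in the mineral matrix and osteocyte lists, was not called without P25 or without 8 weeks. Dspp, the defining odontoblast gene, was at 52.8, 85.9 and 0 CPM against 0.778, 0.337 and 0.047 CPM and sat in few cells, as given below.

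The comparison with Ibsp-high cells, which are also among all other kept cells, asked what separates β-type cells from cells rich in Ibsp, a marker of the α-type cementoblast class. Of 12146 genes tested with edgeR in the same way, 562 (4.63%) were higher and 437 (3.6%) lower in β-type cells. Both shares are the background for counts of called list members in this comparison below. Without the P25 library, 94 genes were higher and 51 lower, and without 8 weeks 357 were higher and 292 lower. Without P15, 644 were higher and 472 lower.

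Sema3e showed the largest difference among the named genes, at 59.2, 64.2 and 118 CPM in β-type cells and 0.695, 0.787 and 1.19 CPM in Ibsp-high cells (log2 6.66, SE 0.16, edgeR adjusted p = 0.000266). Irx5 was at 146, 85.4 and 95 CPM against 4.07, 2.62 and 3.90 CPM (log2 5.16, SE 0.14, edgeR adjusted p = 0.000405). Dtna, which encodes dystrobrevin alpha, was at 52.9, 53.6 and 54.4 CPM against 1.49, 2.19 and 1.19 CPM. All 3 were near the floor in Ibsp-high cells of every library, and Dtna had almost the same level at each age. Kitl, the stem cell factor ligand, was at 83.3, 24.7 and 59.5 CPM against 2.98, 1.84 and 1.02 CPM, with 46.0% of its UMIs of 8 weeks in 5 cells. Without the Phex-led cells and those with Dspp described below, it was at 78.8, 19.4 and 22 CPM. Fras1, a basement membrane protein, was at 117, 75.1 and 33.2 CPM against 5.95, 4.81 and 1.69 CPM. The other genes named on this side were Tcea3 (log2 4.53) and Lurap1l (4.51), and, not called without P25, Coch (6.08, edgeR adjusted p = 0.119 without it), Crtac1 (5.58, 0.109), Col22a1 (5.45, 0.0502), Car3 (4.99, 0.0913) and Car2 (4.75, 0.102). Coch and Car2 were not called without the library block (edgeR adjusted p = 0.0907 and 0.0514).

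On the lower side against Ibsp-high cells stood Timp3, an inhibitor of metalloproteinases, at 191, 69.9 and 193 CPM against 1910, 1840 and 2637 CPM (log2 -3.72, SE 0.27, edgeR adjusted p = 0.00492). Without the Phex-led cells and those with Dspp described below, Timp3 was at 182, 70 and 103 CPM. Serpini1, a serine protease inhibitor of neurons, was at 4.02, 1.73 and 0.730 CPM against 127, 39.5 and 30.3 CPM. Tnmd, tenomodulin of tendon and ligament, was at 57.5, 31.9 and 9.13 CPM against 566, 270 and 185 CPM. Dchs2 (log2 -4.22) and Syn3 (-4.09) were lower as well. The same direction in each library was a condition for naming these genes. Timp3 lies within Syn3 on the opposite strand of chromosome 10, and whether reads were assigned by strand is not given in the sources used here. The homeobox gene Alx1 (log2 -4.96) and the neuropeptide gene Nts (-4.13) were lower too, but were not called without the library block (edgeR adjusted p = 0.0678 and 0.0862). Without P25, Nts, Megf10 (-4.27), Cttnbp2 (-3.78), Adgrl3 (-3.76), the thrombin receptor F2r (-3.30) and Col8a1 (-3.28) were not called, with edgeR adjusted p from 0.0781 for F2r to 0.14 for Col8a1.

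Both classes carried transcripts of the mineralized matrix, with different weights. Of 13 mineral matrix genes tested, 4 were higher in β-type than in Ibsp-high cells, 0 were lower and 9 were not called. Spp1 was at 1593, 3327 and 8027 CPM in β-type cells and at 2594, 4009 and 3895 CPM in Ibsp-high cells, and Dmp1 at 182, 492 and 763 CPM against 306, 160 and 162 CPM. Neither passed the test, and the order of both classes turned between P15 and 8 weeks in both genes. Bglap was higher (log2 3.61, SE 0.66, edgeR adjusted p = 0.0378), and it was not called without P25 or without 8 weeks. Fn1, fibronectin, was at 511, 675 and 873 CPM against 184, 162 and 157 CPM and was called, although not without P25, where 0 of the 4 calls remained.

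Mineralization enzymes divided between the classes. Alpl was at 386, 383 and 252 CPM in β-type cells and at 72.3, 63.7 and 57.4 CPM in Ibsp-high cells (log2 2.60, SE 0.13, edgeR adjusted p = 0.00115), and this was the only call of the list that remained without P25. Without 8 weeks, 4 of the 8 calls remained. Enpp1, which generates pyrophosphate, was at 67.6, 38.2 and 23.7 CPM against 310, 276 and 357 CPM (log2 -2.72, SE 0.31, edgeR adjusted p = 0.0127). The phosphatase gene was thus higher and the pyrophosphate-generating gene lower in β-type cells in every library. Smpd3 was at 1888, 1762 and 1704 CPM against 566, 126 and 95.7 CPM. In all, 6 of 18 genes were higher and 2 lower (Enpp1 and Fam20a).

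Of the 7 α-type cementoblast markers other than Ibsp, 5 were lower in β-type than in Ibsp-high cells and 0 higher, with a median of -2.42 beside -0.01 for all genes tested. The study chose these markers on these libraries, so this count is not independent evidence of direction. Sparcl1 was at 74.6, 62.2 and 122 CPM against 559, 866 and 1257 CPM, and Wnt5a at 134, 86.4 and 122 CPM against 765, 627 and 702 CPM. Ank and Bmp3 did not pass the test. Without P25, 3 of the 5 calls remained, those of Wnt5a, Timp3 and Sparcl1.

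The reporter and its gene differed in level between the classes. Pthlh was at 127, 176 and 186 CPM in β-type cells and at 601, 498 and 592 CPM in Ibsp-high cells (log2 -1.59, SE 0.22, edgeR adjusted p = 0.017). The mCherry transcript was at 292, 315 and 411 CPM against 1051, 810 and 1455 CPM (log2 -1.46, SE 0.16, edgeR adjusted p = 0.00768). Both were several-fold lower in β-type cells in each library. Pthlh was not called without P25 or without 8 weeks, and mCherry not without 8 weeks. Thinned to 3000 UMIs, 40.9%, 48.5% and 50.5% of β-type cells had an mCherry UMI, against 71.1%, 68.5% and 84.3% of Ibsp-high cells and 11.1%, 5.09% and 4% of cells carrying immune transcripts. Against all other kept cells neither passed the test, and the direction depended on the scale, with Pthlh at 127, 176 and 186 CPM against 150, 192 and 231 CPM but a fitted log2 fold change of 0.11. Pth1r, the receptor of PTHrP, was at 113, 58.0 and 46.7 CPM in β-type cells and 62.0, 33.6 and 32.4 CPM in Ibsp-high cells and was not called, since its log2 fold change of 0.95 was below 1.

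Of 30 transcription factors of bone and jaw tested, 4 were higher and 4 lower than in all other kept cells, where 3.87% and 10.7% of all genes were. Compared with Ibsp-high cells, 6 were higher and 5 lower, where 4.63% and 3.6% of all genes were. Of the 8 former calls 5 remained without P25. Runx2, the master factor of bone-forming cells, was at 204, 146 and 142 CPM against 519, 345 and 428 CPM in Ibsp-high cells (log2 -1.18, SE 0.11, edgeR adjusted p = 0.00531), whereas against all other kept cells it was not called (log2 -0.21). Sp7, osterix, was at 158, 168 and 125 CPM, higher than in all other kept cells (68.4, 83.1 and 94.8 CPM) and not called against Ibsp-high cells. Twist1, which restrains Runx2, was at 232, 254 and 190 CPM against 805, 824 and 903 CPM in Ibsp-high cells and was called lower. Without P25, 4 of the 11 calls against Ibsp-high cells remained, those of Runx2, Twist1, Irx5 and Alx1.

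Of 19 ligament and tendon genes, 7 were lower and 2 (Lum and Thbs1) higher, with a median of -1.56. Of 14 precursor markers, 8 were lower and 1 (Bambi) higher, and of 15 periapical markers 9 were lower and 0 higher, both lists having been chosen by the study on these libraries. Postn, periostin of the ligament, was at 327, 289 and 195 CPM against 944, 2264 and 2120 CPM, and Thbs4, a thrombospondin of tendon, at 390, 102 and 241 CPM against 845, 594 and 1421 CPM. Both were lower in each library and neither was called without P25 or without 8 weeks. Without P25, 3 of the 9 ligament calls, 5 of the 9 precursor calls and 4 of the 9 periapical calls remained, and without the library block 4, 6 and 2 remained. Against Ibsp-high cells, 4 ligament genes were lower and 2 higher of 18 tested, where 3.6% and 4.63% of all genes were. The median of the list was -0.017 there. Without P25, 3 of the 6 calls, those of Scx, Thbs2 and Eln, were lost (edgeR adjusted p = 0.139, 0.097 and 0.22). Thbs1, the founding thrombospondin, ran the other way at 172, 311 and 602 CPM against 13.4, 29.7 and 27.4 CPM (log2 4.05, SE 0.27, edgeR adjusted p = 0.00351).

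Signalling genes differed gene by gene. Among Wnt inhibitors, 2 (Dkk1 and Notum) were higher and 6 lower of 13 tested against all other kept cells, where 3.87% and 10.7% of all genes were. Against Ibsp-high cells, 3 (Dkk1, Notum and Frzb) were higher and 3 (Dkk2, Dkk3 and Sfrp2) lower of 11, where 4.63% and 3.6% of all genes were. Notum, which removes the lipid from Wnt ligands, was at 131, 48.4 and 8.76 CPM in β-type cells, 22.5, 4.37 and 2.03 CPM in Ibsp-high cells and 26.3, 7.73 and 4.49 CPM in all other kept cells. Its call against all other kept cells was lost without P15 and without P25, and that against Ibsp-high cells remained in both but not without the library block. Without P25 the calls of Sostdc1, Sfrp2, Sfrp5 and Notum, 4 of 8, were lost against all other kept cells and those of Frzb and Sfrp2, 2 of 6, against Ibsp-high cells, and Sfrp2 was lost in both without 8 weeks. Wif1, the inhibitor with the most UMIs, was at 2143, 1897 and 1006 CPM against 2516, 2891 and 4052 CPM in Ibsp-high cells and was not called. Of 25 Wnt receptors and response genes, 2 (Lrp4 and Fzd9) were higher and 1 (Rnf43) lower than in all other kept cells, where 3.87% of all genes were higher and 10.7% lower, and the call of Rnf43 was lost without P15 (edgeR adjusted p = 0.117), without P25 (0.272), with Ibsp under 0.75% and without the library block. Of the same genes, 2 were higher (Lrp4 and Fzd9) and 2 lower (Fzd1 and Lef1) than in Ibsp-high cells, where only the call of Fzd1 remained without P25. Of the Wnt ligands, Wnt5a, Wnt5b and Wnt7b were lower than in Ibsp-high cells and Wnt6 and Wnt11 higher, of 9 tested, and only that of Wnt5a remained without P25.

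In the BMP pathway, Bambi, a decoy receptor that dampens BMP and TGF-β signals, was at 990.5, 869 and 776 CPM in β-type cells, 135, 126 and 121 CPM in Ibsp-high cells and 270, 162 and 164 CPM in all other kept cells (log2 3.0, SE 0.09, edgeR adjusted p = 0.000471 against Ibsp-high cells). It was called in both comparisons with each library left out in turn. Of 25 genes of the pathway tested, 2 (Bambi and Bmp8a) were higher and 8 lower than in all other kept cells, where 3.87% and 10.7% of all genes were. Among the lower were the antagonists Nog and Grem1. Without P25 only the calls of Bambi and Bmp8a remained, and DESeq2 did not call Grem1 (adjusted p = 0.0774). Bmp2 was at 150, 154 and 178 CPM against 348, 461 and 538 CPM in Ibsp-high cells and was called lower, not without P25. Among semaphorins, Sema3d was at 55.6, 115 and 141 CPM against 12.6, 8.48 and 7.45 CPM in Ibsp-high cells, Sema3b and Sema3e were higher as well, and Sema3a was lower, of 12 semaphorins and receptors tested. Of those calls only that of Sema3e remained without P25.

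The chosen cells were not of 1 kind. Cells with most UMIs of the 3 rule genes from Phex, and cells with at least 5 UMIs of Dspp, were set apart first. The rest were divided by whether Ifitm5 or Col11a2 had more UMIs. Of all chosen cells, 182, 289 and 68 were Ifitm5-led at P15, P25 and 8 weeks (68.4%, 47.4% and 33.2%). Another 62, 297 and 95 were Col11a2-led (23.3%, 48.7% and 46.3%). A further 14, 5 and 39 had the majority of these UMIs from Phex and are called Phex-led (5.26%, 0.82% and 19%), and 8, 16 and 0 others had at least 5 UMIs of Dspp. In the remaining 0, 3 and 3 cells Ifitm5 and Col11a2 had equal counts. These kinds were set after their values were seen and are described without a test.

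**Figure D2:**
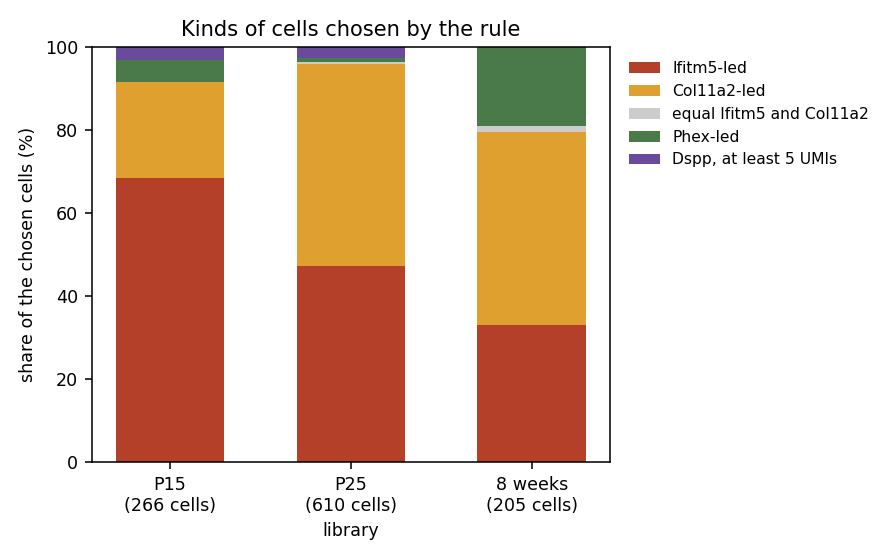
Kinds of β-type cells at each age as a stacked share, in percent, of the chosen cells of each library (266, 610 and 205 cells). Ifitm5-led cells are 68.4%, 47.4% and 33.2% at P15, P25 and 8 weeks, and Phex-led cells 5.26%, 0.82% and 19%.

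Summed, the Phex-led cells of 8 weeks held transcripts of fibroblasts and of mineralizing cells. Whether the same cells held both was not tested. Igfbp5 was at 10096 CPM in them and 65.6 CPM in the other β-type cells of that age, and Clec3b, Dpt, Pi16, Cd34, C3 and Col14a1, genes of connective tissue fibroblasts, were at 745 to 1669 CPM against 0 to 6.16 CPM. These genes had a UMI in 61.5% to 66.7% of the 39 cells. Bglap was at 19684 CPM with a UMI in 82.1% without thinning, against 78.7% of all other kept cells of that age. Col22a1 was at 17.2 CPM. Dmp1 was at 1156 CPM against 682 CPM in the other β-type cells of that age, Pthlh at 264, Spp1 at 5063 and Sema3e at 73.0 CPM, and Smpd3 at 898 CPM with a UMI in 76.9% without thinning. Only 38.5% of the 39 cells had a Dmp1 UMI, and the share was the same for Pthlh and for Sema3e. The 14 Phex-led cells of P15 were led by Lpl, Cxcl12, Igf1, Dpt, Angptl7 and Mmp13, with Bglap at 2326 CPM and 0 UMIs of Col22a1, Sema3e and Dmp1. They are not named as a cell type here.

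The cells with Dspp carried further odontoblast genes. At P15 the 8 cells had Dspp at 1326 CPM, the enamel and dentin protease gene Mmp20 at 87.2 CPM, Nes at 716 CPM and Bglap at 55914 CPM. At P25, where 18 cells include 2 that were also Phex-led, Dspp was at 1887 CPM, Mmp20 at 252 CPM, Nes at 268 CPM and Bglap at 84541 CPM. Outside the chosen cells, 4 kept cells at P15 and none at P25 or 8 weeks had as many Dspp UMIs. Leaving out Phex-led cells, cells with Dspp or both kept the number of genes called within 1.5 times in both comparisons.

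Few genes differed the same way between Ifitm5-led and Col11a2-led cells in every library. Of 2717 genes compared, 17 were higher in Ifitm5-led and 12 in Col11a2-led cells by at least 0.5 on the log2 scale in each library. Tubb3, a tubulin of neurons, was at 548, 407 and 269 CPM in Ifitm5-led and 234, 183 and 122 CPM in Col11a2-led cells at P15, P25 and 8 weeks. Klf2, a shear-sensitive transcription factor, was at 617, 809 and 512 CPM against 214, 472 and 319 CPM, and Bmp4 at 262, 86.4 and 37.0 CPM against 91.1, 51.8 and 19.6 CPM. On the other side, Col1a1 was at 24151, 57003 and 50838 CPM in Ifitm5-led and 55882, 92154 and 81577 CPM in Col11a2-led cells, and Thbs1 at 75.8, 129 and 469 CPM against 273, 398 and 762 CPM. Col11a1, the partner chain of the gene that set the kinds, was at 2244, 1547 and 1119 CPM in Col11a2-led and 1108, 971 and 779 CPM in Ifitm5-led cells. Lars2, at 606, 987 and 1386 CPM in Col11a2-led and 276, 483 and 598 CPM in Ifitm5-led cells, was on the same side. Other genes differed at some ages only. Coch was at 1738, 773 and 5.17 CPM in Ifitm5-led and 220, 153 and 3.74 CPM in Col11a2-led cells. At P15, Tac1 (132 against 23.4 CPM) and Dlk1 (106 against 35.5 CPM) were higher in Ifitm5-led cells, and Stmn2 (126.5 against 176.6 CPM) was lower. Median UMIs were 21334, 27375 and 17696 in Ifitm5-led and 17260, 27913 and 9236 in Col11a2-led cells, and the part of depth in these differences was not tested.

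**Figure D3:**
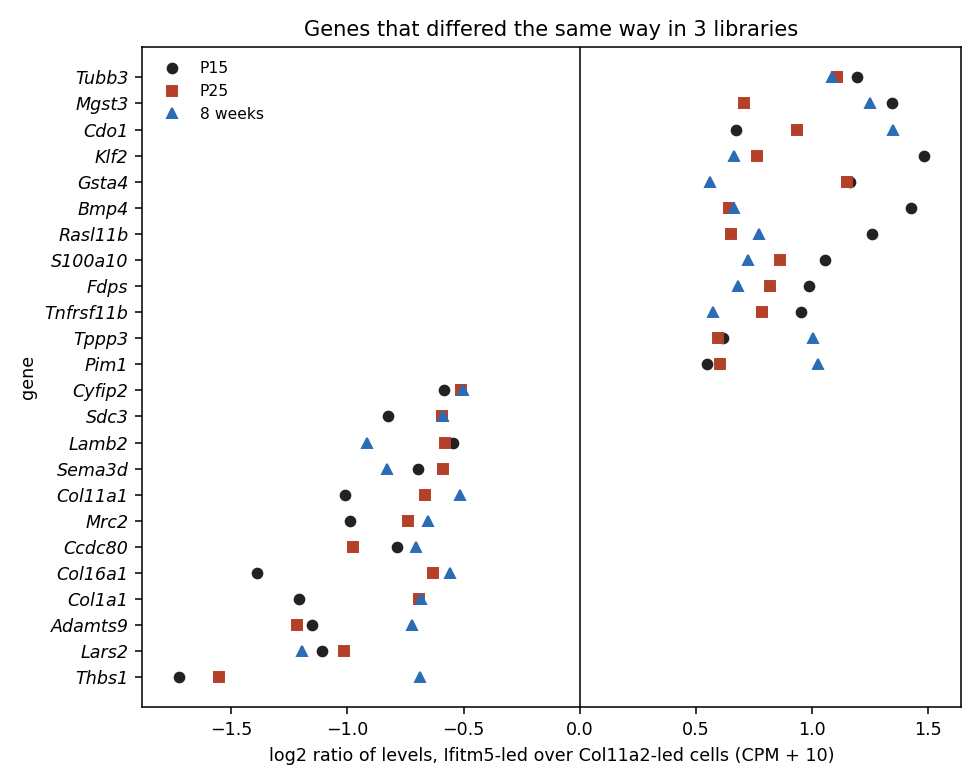
Log2 ratio of levels in Ifitm5-led over Col11a2-led cells (CPM plus 10), 1 point per library, for 12 genes on each side among those that differed by at least 0.5 in each library. Tubb3 stands at 1.19, 1.11 and 1.09 at P15, P25 and 8 weeks, and Thbs1 at -1.72, -1.56 and -0.69.

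How the β-type cells differed by age was described by levels, as there is 1 library per age. Of 3013 genes with at least 50 CPM at P15 or 8 weeks, 123 (4.08%) were at least 2-fold higher and 131 (4.35%) at least 2-fold lower at 8 weeks, with a pseudocount of 10 CPM. In all other kept cells of the same libraries, 122 (3.63%) of 3359 were higher and 88 (2.62%) lower. The median log2 ratio over all genes was -0.23 in β-type cells and -0.01 in the others, and TMM scaling moved the ratios in β-type cells up by a median of 0.18. With it, 165 were higher and 91 lower. Levels at P25 lay between those of both ages for 85 of the 123 and 111 of the 131. No test is possible, fewer cells of a kind and less RNA per cell cannot be told apart in these sums, and the kinds of cells changed in share with age.

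Of 12 mineral matrix genes with at least 50 CPM, 5 (Bglap, Bglap2, Bglap3, Spp1 and Dmp1) were past the limit upward at 8 weeks and 2 (Dspp and Mgp) downward, where 4.08% and 4.35% of all genes were. Bglap went from 11165 to 18104 and 36918 CPM, 3.31-fold (95% Poisson interval of the ratio 3.27 to 3.34), and Bglap2 from 4495 to 9554 and 25152 CPM, 5.6-fold (5.52 to 5.68). Spp1 went from 1593 to 3327 and 8027 CPM, 5.04-fold (4.92 to 5.16), and Dmp1 from 182 to 492 and 763 CPM, 4.18-fold (3.88 to 4.51). The levels were ordered by age in these 4 genes and not in Bglap3 (299, 225 and 856 CPM). Dspp was at 52.8, 85.9 and 0 CPM and Mgp, matrix Gla protein, at 299.9, 24.1 and 112 CPM. Without the Phex-led cells and those with Dspp, Mgp was at 240, 10.8 and 3.96 CPM. The other kept cells shared the direction for Bglap and Bglap2 (log2 ratio with the pseudocount 1.97 and 2.14 against 1.72 and 2.48 in β-type cells), whereas in Ibsp-high cells both were lower at 8 weeks (-0.85 and -0.99). Within Ifitm5-led cells Bglap was at 8148, 12551 and 35741 CPM, and within Col11a2-led cells at 14571, 17465 and 44871 CPM. Dmp1 was at 126, 366 and 803 CPM and at 253, 576 and 554 CPM in the same kinds. Within single cells the level varied widely, and the median β-type cell had Bglap at 1175, 4077 and 21138 CPM, with 10th and 90th percentiles of 37.6 and 16760 CPM at P15 and 190 and 84947 CPM at 8 weeks. For Dmp1, 35.3% of the UMIs of P15 and 38.8% of those of 8 weeks came from 5 cells. The median β-type cell had Dmp1 at 0, 61.6 and 80.2 CPM.

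**Figure D4:**
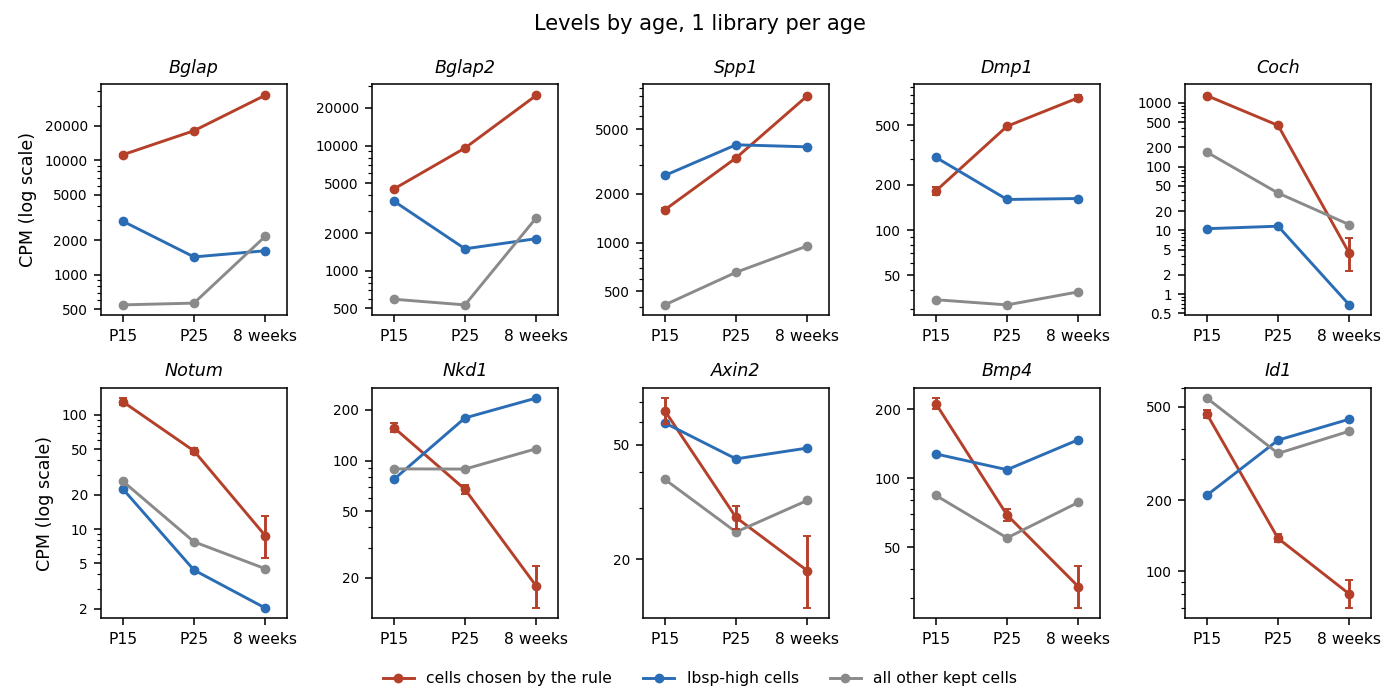
Levels in CPM on a log scale at P15, P25 and 8 weeks, with 1 library per age, in the β-type cells, Ibsp-high cells and all other kept cells, and bars for exact 95% Poisson intervals of the β-type cells. Bglap, Bglap2, Spp1 and Dmp1 are highest and Coch, Notum, Nkd1, Axin2, Bmp4 and Id1 lowest at 8 weeks in the β-type cells.

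The 10 genes with the largest ratios of 8 weeks to P15, and P25 between, were Pi16, Ly6a, Igfbp6, Gatm, Ly6c1, Has1, Gpha2, Serping1, Ackr3 and Bglap2, and part of these ratios came with the Phex-led cells and those with Dspp. Pi16, a fibroblast gene, was at 7.69, 24.9 and 289 CPM, but without the Phex-led cells and those with Dspp its log2 ratio turned from 4.08 to -0.18, and those of Ly6a (0.25), Ly6c1 (0.19) and Has1 (0.81) were below 1. Ackr3 moved from a log2 ratio of 2.63 to 1.39 and from 86.2 to 29.9 CPM at 8 weeks, under the limit of 50 CPM. Gatm, which makes the creatine precursor, was at 5.42, 19.6 and 132 CPM and stayed past the limit without those cells (log2 ratio 3.29), as did Gpha2 (2.99), the complement inhibitor gene Serping1 (2.68) and Bglap2 (2.76). Igfbp6 stayed past it as well, at 2.92 in place of 3.74, and its level at 8 weeks was 151 in place of 297 CPM. In Ifitm5-led cells Gatm was at 5.64, 21.9 and 138 CPM and in Col11a2-led cells at 6.45, 19.3 and 154 CPM. Over all genes, 70 were higher and 142 lower without those cells, 61 and 120 of them in common with the sets above.

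The 10 genes with the smallest ratios were Coch, Tac1, Col26a1, Notum, Dlk1, Stmn2, Mmp13, Hist1h2ap, Kcnip4 and Mest, and all 10 stayed past the same limits without the Phex-led cells and those with Dspp. At P15, 5 cells held 91.8% of the Hist1h2ap UMIs and 53.3% of the Mmp13 UMIs, and without those kinds Mmp13 was at 67.3 in place of 155 CPM at P15. Coch, a secreted protein first described in the inner ear, was at 1302, 444 and 4.38 CPM. The ratio of 8 weeks to P15 was 0.00337 (0.00174 to 0.00588). Other kept cells went the same way with a smaller difference (169, 38.5 and 12.3 CPM, log2 -3.0 against -6.51 with the pseudocount), and Ibsp-high cells had little at any age (10.6, 11.6 and 0.677 CPM). Tac1, the gene of substance P, was at 104, 9.09 and 0.730 CPM, with 2 UMIs at 8 weeks (ratio 0.00705, 0.000852 to 0.0256). In other kept cells Tac1 was at 92.4, 12.3 and 3.13 CPM (log2 -2.96 against -3.40 with the pseudocount). Dlk1, a Notch-type ligand of immature cells, was at 84.0, 69.5 and 3.29 CPM, and Mest, an imprinted gene of growing tissue, at 80.7, 11.9 and 4.75 CPM. In other kept cells Dlk1 was at 15.6, 21.1 and 11.9 CPM and Mest at 138, 56.85 and 40.95 CPM. Stmn2, a microtubule regulator of neurons, was at 131, 21.1 and 10.2 CPM in β-type cells while other kept cells went from 36.1 to 75.4 and 207 CPM and Ibsp-high cells from 110 to 296 and 594 CPM.

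**Figure D5:**
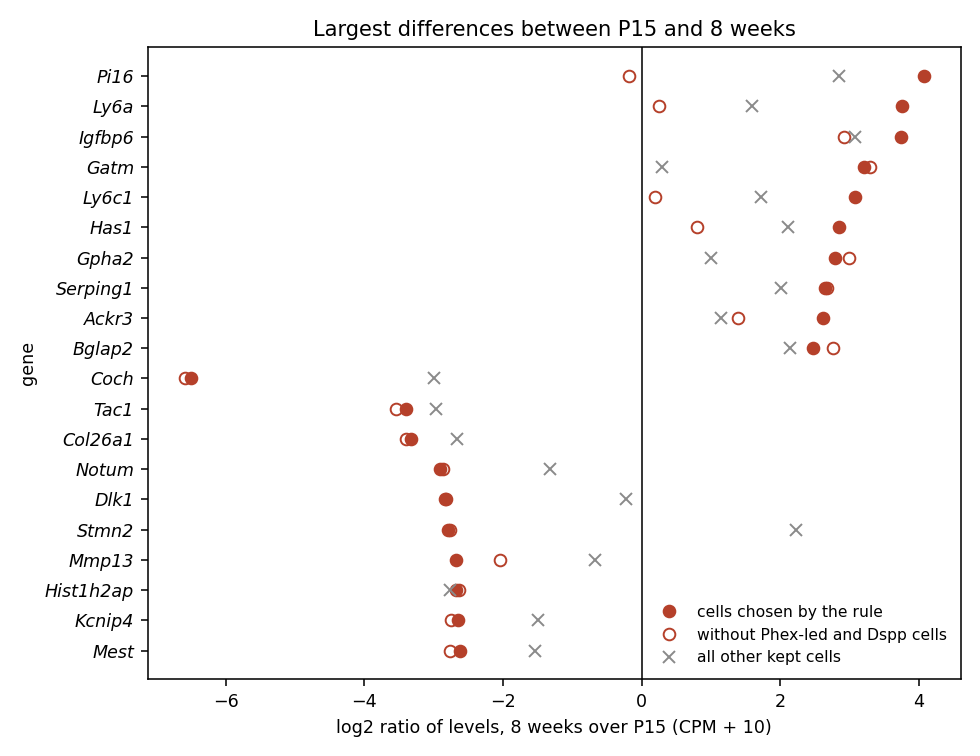
Log2 ratio of 8 weeks over P15 (CPM plus 10) for the 20 genes named by age, with filled points for the β-type cells, open points for β-type cells without Phex-led cells and those with Dspp, and crosses for all other kept cells. Pi16 moves from 4.08 to -0.18 without those cells, while Coch stands at -6.51 and the other kept cells at -3.0.

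Nkd1, a feedback inhibitor of Wnt signals, was at 157, 67.4 and 17.9 CPM, and Axin2, another, at 65.5, 27.9 and 18.3 CPM. Lef1 and Tcf7, nuclear partners of β-catenin, were at 52.6, 20 and 13.2 CPM and at 152, 91.9 and 65.4 CPM. All 4 were ordered by age, and they are the 4 genes that passed the 2-fold limit downward among the 12 Wnt receptors and response genes with at least 50 CPM, none passing it upward. The shares over all genes were 4.35% downward and 4.08% upward. With TMM scaling Tcf7 was at a log2 ratio of -0.91 in place of -1.10 and did not pass, nor did it without the Phex-led cells and those with Dspp (-0.98). In Ibsp-high cells Nkd1 was at 77.1, 179 and 235 CPM, the opposite order. Within Ifitm5-led cells Nkd1 was at 198, 92.7 and 18.1 CPM and within Col11a2-led cells at 50.8, 46.2 and 16.8 CPM. Axin2 was at 76.5, 30.6 and 17.2 CPM in the former (log2 ratio -1.67) and at 42.8, 26.1 and 23.4 CPM in the latter (-0.66). Of the 4 Wnt inhibitors with at least 50 CPM, Notum, Wif1 and Sfrp2 were lower and Sfrp4 higher at 8 weeks, and Wif1 did not pass with TMM scaling (-0.88 in place of -1.08). Without the Phex-led cells and those with Dspp, Sfrp2 was at 98.0 in place of 186 CPM at P15 and at 27.7 in place of 63.5 CPM at 8 weeks, and neither Sfrp4 (log2 0.81 in place of 1.45) nor Wif1 (-0.998) passed.

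Of 11 BMP pathway genes with at least 50 CPM, 2 (Bmp4 and Id1) passed the limit downward and 1 (Bmp3) upward, where 4.35% and 4.08% of all genes did. Bmp4 was at 212, 69.1 and 33.6 CPM, a ratio of 0.158 (0.127 to 0.196), and Id1, an immediate target of BMP signals, at 465, 138 and 80.0 CPM, a ratio of 0.172 (0.149 to 0.198). In Ibsp-high cells Id1 was at 210, 360 and 442 CPM, the reverse order. Bmp3 was at 192, 227 and 449 CPM and past the limit upward. Pth1r was at 113, 58.0 and 46.7 CPM, a ratio of 0.414 (0.339 to 0.501), and did not pass with TMM scaling (log2 -0.94). Pthlh at 127, 176 and 186 CPM did not pass the limit.

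Matrix genes did not share 1 order by age. Col1a1 was at 32616, 75732 and 57539 CPM and Sparc at 19322, 47802 and 37894 CPM, both highest at P25. Of 19 collagen genes with at least 50 CPM, 3 passed the limit upward and 6 downward, where 4.08% and 4.35% of all genes did. Among the 6, Col16a1 and Col27a1 did not pass with TMM scaling. Of the 3, Col14a1 was at 745 CPM in the Phex-led cells of 8 weeks, and without those cells and those with Dspp it was at 4.14, 1.64 and 0.44 CPM. Col22a1 was at 30.7, 122 and 141 CPM and passed upward, and Col2a1, the collagen of cartilage, passed downward at 197, 2.17 and 4.02 CPM with 95.1% of its P15 UMIs in 5 cells. Xbp1 (487, 351 and 218 CPM) and the prolyl hydroxylase gene P4ha2 (221, 214 and 76.7 CPM) were lower at 8 weeks, Xbp1 not past the limit with TMM scaling (log2 -0.93). Smpd3, by contrast, was at 1888, 1762 and 1704 CPM, and Irx5 and Alpl did not pass the limit either.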

How the data were processed

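Droplet counts of 3 libraries of sorted Pthrp-mCherry cells were used, and a P6 library was not analysed here. The deposited matrices hold UMI counts per gene and cell, which the authors made with Cell Ranger, aligned to mm10 per the submitters' notes. The notes give Cell Ranger 6.1.2, per the file headers P25 was made with 6.0.1, and the gene annotation is not given in the sources used here. The P25 file lists 32293 features and the others 22056, so levels are CPM over the 21446 genes they share, which hold 99.7%, 95.2% and 99.8% of the UMIs at P15, P25 and 8 weeks. Cells were chosen as described above, no doublet caller was run, and cells of each class were summed per library.

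Sums were compared with edgeR 4.0.16 in R 4.3.3 (TMM scaling, quasi-likelihood test, library as a block, Benjamini-Hochberg adjustment over all genes tested). The block rests on the design, since both classes of cells in a pair come from the same library and the same pooled animals. Alternatives were DESeq2 1.42.0, RLE size factors, no filter on low counts, no block, other limits of the rule, and each library left out. The test was tried on simulated counts, and no result given here rests on that trial. Ages were compared by size only (at least 50 CPM, 2-fold, pseudocount 10 CPM), and genes chosen for age had P25 between. The genes named by size were the 15 highest and 8 lowest called against all other kept cells, the 12 highest and 12 lowest against Ibsp-high cells (same direction in 3 of 3 libraries, mean in the class with more of at least 50 CPM), and 10 each way by age. Other genes come from 30 fixed lists. The members, the lists and the tests were chosen with earlier results of these data known. Kinds of cells within the members, and the values without them, were added after seeing the data. Sequences and positions come from RefSeq on GRCm38.p6 and GENCODE M21.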

Additional observations from a re-analysis of the deposited data

Results flagged for a closer look

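In 5 genes the difference between β-type cells and a comparison class pointed in opposite directions at different ages, by more than 1 on the log2 scale each way (CPM with a pseudocount of 10). With 1 library per age, the difference between ages was not tested. Bmp4, a BMP ligand, stood at 1.24 against all other kept cells at P15 and at -1.02 at 8 weeks. Id1, a BMP target, stood at 1.11 against Ibsp-high cells at P15 and at -2.33 at 8 weeks. Tnc, the matrix protein tenascin C, stood at 1.45 against Ibsp-high cells at P15 and at -1.22 at 8 weeks. The globin genes Hbb-bs and Hbb-bt stood at -3.11 and -2.23 against Ibsp-high cells at P15 and at 4.56 and 3.78 at P25, where 98.1% of the Hbb-bs UMIs of β-type cells came from 5 cells.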

How the results depend on the processing

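Against all other kept cells 2078 genes were called (552 higher, 1526 lower). Leaving out 1 library gave 818 to 2102 in all, 314 to 561 higher and 504 to 1541 lower. Both classes of a pair share a library, and without this pairing in the model (no replicate block) 673 were called, 373 higher and 300 lower. With cells carrying markers of other types left out of the comparison class, 1366 were called and 836 lower, and S100a8 (0.77), H2-Aa (0.052), Cd74 (0.22) and Krt13 (0.49) changed sign and were not called. Against Ibsp-high cells 999 were called. Leaving out 1 library gave 145 to 1116 in all, 94 to 644 higher and 51 to 472 lower, with 649 in all and 357 higher without 8 weeks, and 821 without the block. DESeq2 called 2037 and 1119 genes in these comparisons. Other limits of the rule moved the shares. With at least 10 UMIs they were 2.05% at P15 and 3.44% at 8 weeks, and with Ibsp under 0.75% they were 1.89%, 6.4% and 3.83% at P15, P25 and 8 weeks. Thinning gave 2.81% at P15. Leaving out the 6% of cells with the most UMIs gave 6.34% at P25 and 3.43% at 8 weeks, and leaving out Phex-led cells, with or without those with Dspp, 3.62% at 8 weeks. For age, without a minimum level 440 genes passed (220 higher, 220 lower). Without the 6% of cells with the most UMIs 204 were higher, without Phex-led cells 69 and without those with Dspp as well 70, and Pi16 turned to -0.15 and -0.18. The causes were not tested. The number of cells and UMIs limits what the 8-week library can show.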
